A study of Ovis aries with 41 samples.

Results

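Macrophage genes were followed along the sheep tail in skin of the base, the mid-tail and the tip. The set was chosen by symbol and holds 10 genes, namely CSF1R, CD163, CD68, MRC1, AIF1, C1QA, C1QB, C1QC, LYVE1 and TNFSF13B. Of these, 9 had a row among the 31182 genes counted, and 8 had counts and were tested in every comparison. The skin came post-mortem from adult rams of the Improved Jezersko–Solčava breed. The 4 A/A rams were homozygous for the ancestral HOXB13 allele, which goes with a short tail, and the 3 D/D rams for the derived allele, which carries a promoter insertion and goes with a long tail. The mid-tail and the tip therefore lay farther from the base in D/D rams than in A/A rams. Each ram gave all 3 positions and 2 libraries at each, except that ram 871869 (D/D) had a single library at its mid-tail. The labels number these libraries but do not say whether they came from separate biopsies, so their counts were added up and a ram entered each comparison once.

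Macrophages live in the dermis as resident phagocytes that clear debris, sample the tissue and call in other immune cells. Their survival depends on the receptor CSF1R, which binds the growth factors CSF1 and IL34. They take up ligands through receptors such as MRC1 and CD163, and they make the chains of C1q, the protein that starts the classical complement pathway. A subset of resident macrophages that lies along vessels carries LYVE1, a hyaluronan receptor better known from lymphatic endothelium. None of the 10 genes marks every macrophage, and several are used by other cells as well.

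The 41 libraries held 9177395 to 23431409 counts, and the 21 sums of a ram and position held 17132063 to 37645752. Levels are given as CPM, counts scaled to a common library size by the TMM method, and they are compared within a gene, since transcript lengths were not used here. A gene is said to have risen or fallen where the quasi-likelihood test of edgeR gave an adjusted p under 0.05 over all genes tested. In bulk skin, fewer cells of a type and less RNA per cell cannot be told apart.

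Coordinates follow the assembly ARS-UI_Ramb_v3.0. CSF1R lies on chromosome 5 from 59152070 to 59183558, and it had 16492 counts over all libraries. MRC1 (chromosome 13, 31637571 to 31749273) had 9998 counts and LYVE1 (chromosome 15, 41819090 to 41833662) had 11819. The C1q genes sit side by side on chromosome 2 in the order C1QB, C1QC and C1QA within 26537 bases, with 14194, 5387 and 8180 counts. TNFSF13B (chromosome 10, 83018224 to 83049598) had the fewest of the genes with counts, at 1594. AIF1 (chromosome 20, 26767044 to 26791334) had 3708 counts, and 86.8% of its span is shared with NCR3, a natural killer cell receptor gene with 1282 counts.

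CD163 and CD68, both widely used macrophage markers, gave no usable value. CD163, the receptor for haemoglobin bound to haptoglobin, had no row under that symbol. CD68, a lysosomal glycoprotein gene, was listed at 0 counts in all 41 libraries. The whole span of CD68 (chromosome 11, 27131634 to 27133684) lies within the spans of EIF4A1, with 111604 counts, and of SOX15, with 4279. The part of this overlap in the value was not tested, and the 0 is not read as absence of the transcript.

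Most of the macrophage genes were lower at the tip of the tail than at its base. Over all 7 rams, 6 of the 8 tested genes fell from base to tip, namely LYVE1, MRC1, CSF1R and the genes of all 3 C1q chains. Among all 19029 genes tested, 4.49% changed and 2.67% fell in this comparison. The largest fall of the 8 was that of LYVE1 at 5.94-fold, the other 5 fell by 1.71-fold to 2.37-fold, and AIF1 and TNFSF13B did not pass the test. The median log2 fold change of the 8 genes was -1.04, against -0.02 over all genes tested. Since the genes were chosen with earlier results of these data known, these shares and medians describe the set and do not test it. An unadjusted p under 0.05 was given for 7 of the 8 and for 18.4% of all genes.

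**Figure D1:**
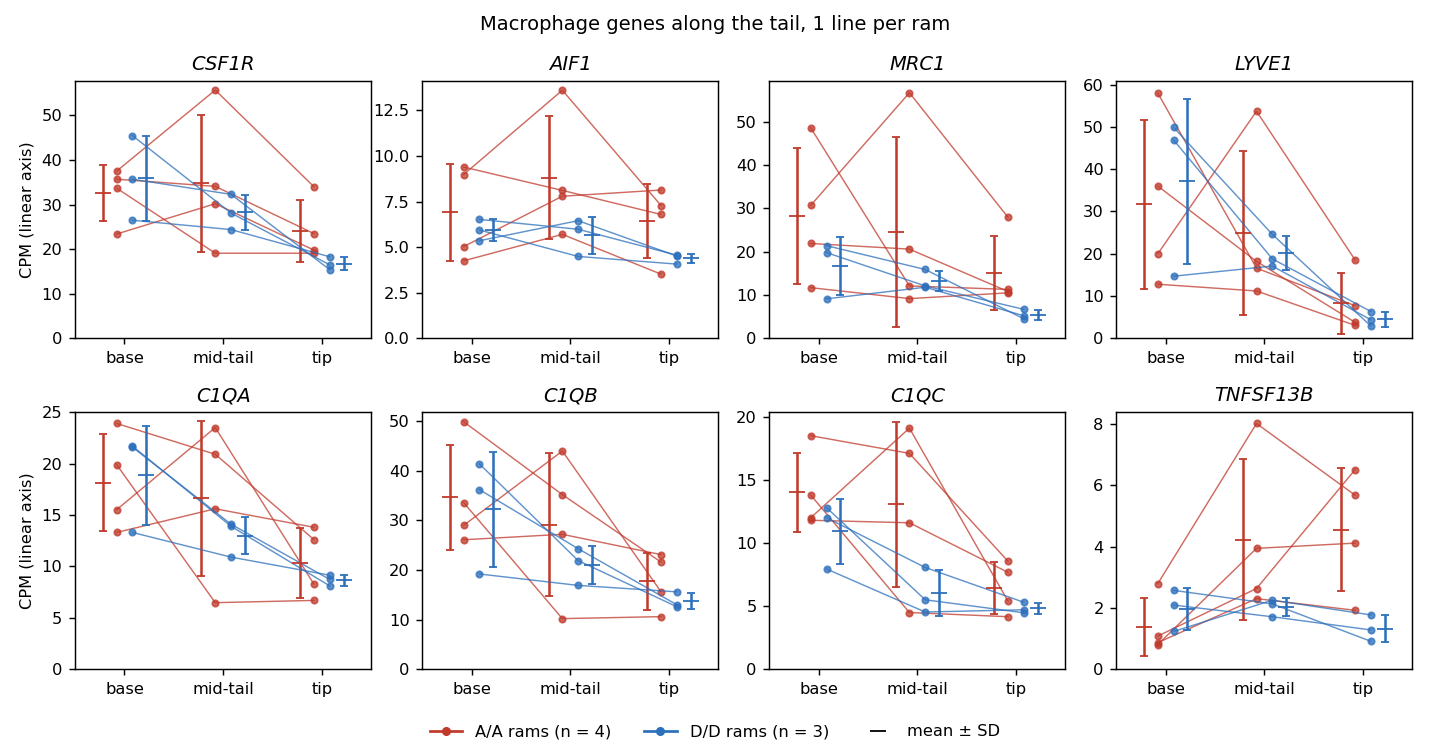
Level of each macrophage gene in CPM (linear axis from 0) at the base, mid-tail and tip. Each line is a ram, A/A in red (n = 4) and D/D in blue (n = 3), and the bars give the mean ± SD. LYVE1 ends between 2.87 and 18.5 CPM at the tip in all rams, and TNFSF13B climbs in the 4 A/A rams from 0.804 to 2.79 CPM at the base to 1.92 to 6.51 CPM at the tip.

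In the following, values of A/A rams are in the order 835507, 871932, 871784 and 871772, and those of D/D rams in the order 871787, 871869 and 871868. LYVE1 stood at 20.0, 12.8, 36 and 58.0 CPM at the base of the A/A rams and at 46.9, 49.9 and 14.7 CPM at the base of the D/D rams. At the tip the levels were 18.5, 3.07, 3.77 and 7.71 CPM in A/A and 6.34, 2.87 and 4.37 CPM in D/D. Every ram was lower at the tip, but the ranges of base and tip overlapped because ram 835507 kept 18.5 CPM there, and its own change was only -0.11 on the log2(CPM + 0.5) scale. The fitted log2 fold change was -2.57 ± 0.35 (SE) with an adjusted p of 0.00077. LYVE1 fell within each genotype too, where the log2 fold change of the A/A rams was -2.23 ± 0.46 (adjusted p = 0.0263) and that of the D/D rams -2.91 ± 0.54 (adjusted p = 0.0273).

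The mid-tail values of LYVE1 lay between those of base and tip in 5 of 7 rams. They were 53.7, 11.2, 18.2 and 16.6 CPM in A/A and 18.8, 24.6 and 17.1 CPM in D/D. From mid-tail to tip LYVE1 was lower in all 7 rams, as were 1.36% of all genes tested. Its log2 fold change of -1.91 had an adjusted p of 0.064 and did not pass the test, but it passed when ram 835507 was left out.

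MRC1, the mannose receptor also called CD206, fell by 1.24 ± 0.27 on the log2 scale from base to tip over all rams (adjusted p = 0.0174). At the base it stood at 30.7, 11.7, 21.9 and 48.6 CPM in A/A and at 19.8, 21.4 and 9.13 CPM in D/D. At the tip it stood at 27.9, 10.5, 10.8 and 11.3 CPM in A/A and at 6.69, 4.5 and 5.21 CPM in D/D. Each ram was lower at its tip, with changes of -2.13 to -0.14 on the log2(CPM + 0.5) scale, and the 2 smallest were those of the A/A rams 835507 and 871932. Taken alone, neither the A/A rams (log2 fold change -0.94, adjusted p = 0.224) nor the D/D rams (-1.55, adjusted p = 0.112) passed the test.

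CSF1R, the receptor on which macrophages depend, fell by 0.77 ± 0.15 on the log2 scale over all rams (adjusted p = 0.00765). Base levels were 37.5, 23.4, 33.7 and 35.7 CPM in A/A and 45.5, 35.7 and 26.5 CPM in D/D. Tip levels were 34.0, 19.8, 19.1 and 23.5 CPM in A/A and 16.5, 15.4 and 18.3 CPM in D/D. In D/D rams base and tip did not overlap, but the share of all genes with such a separation was not counted. The fall in D/D rams was 1.07 ± 0.23 on the log2 scale (adjusted p = 0.0427). The A/A value of -0.47 ± 0.19 did not pass (adjusted p = 0.262), and the difference between the genotypes in this change, -0.60 ± 0.30, did not pass either (adjusted p = 0.787).

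The C1q genes moved together. Over all rams the log2 fold change from base to tip was -1.17 ± 0.21 for C1QC (adjusted p = 0.00538), -1.09 ± 0.23 for C1QB (0.0137) and -0.98 ± 0.22 for C1QA (0.0178). C1QC stood at 12, 11.8, 13.8 and 18.5 CPM at the A/A base and at 5.37, 7.67, 4.16 and 8.54 CPM at the A/A tip. In D/D it went from 12.8, 12 and 7.94 CPM to 4.47, 5.3 and 4.71 CPM. Base and tip of C1QC did not overlap within either genotype, but the share of all genes with such a separation was not counted. C1QB ranged from 19.2 to 49.9 CPM at the base and from 10.6 to 23.1 CPM at the tip over all rams, and C1QA from 13.3 to 23.9 and from 6.69 to 13.8 CPM. The A/A ram 871932 was the exception for C1QA, with 13.3 CPM at the base and 13.8 CPM at the tip. CSF1R, MRC1, C1QB, C1QC and LYVE1 were lower at the tip in all 7 rams, as were 4.05% of all genes tested.

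AIF1, which codes for the actin-binding protein IBA1, stayed within its spread. It ranged from 4.25 to 9.39 CPM at the base, from 4.49 to 13.6 CPM at the mid-tail and from 3.52 to 8.13 CPM at the tip. Its log2 fold change from base to tip was -0.26 ± 0.15 (adjusted p = 0.389), with 6 of 7 rams lower at the tip.

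TNFSF13B codes for BAFF, a cytokine that keeps B cells alive, and it was the only one of the 8 genes to rise. In A/A rams it rose from base to tip by 1.79 ± 0.34 on the log2 scale, or 3.46-fold (adjusted p = 0.0178). At the A/A base it stood at 2.79, 0.804, 0.868 and 1.08 CPM, at the mid-tail at 8.01, 3.94, 2.3 and 2.63 CPM and at the tip at 5.67, 4.11, 1.92 and 6.51 CPM. All 4 rams were higher at the tip than at their own base, as they were for 9.82% of all genes tested, and all 4 were higher at the mid-tail too, as for 5.99%. In D/D rams the levels were 2.09, 2.57 and 1.23 CPM at the base, 1.71, 2.13 and 2.25 CPM at the mid-tail and 1.28, 0.908 and 1.77 CPM at the tip. There 1 of 3 rams was higher at the tip, and the log2 fold change was -0.56 ± 0.40 (adjusted p = 0.612). These are low counts, between 20 and 235 per ram and position.

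The change of TNFSF13B from base to tip was larger in every A/A ram, at 0.82 to 2.15 on the log2(CPM + 0.5) scale, than in any D/D ram, at -1.12 to 0.39. The same separation held for 4.62% of all genes tested. The interaction term, D/D minus A/A, was -2.36 ± 0.52 with an unadjusted p of 0.000392, but its adjusted p over 19029 genes was 0.469, and none of the 8 genes passed in either interaction (0.0% of all genes). DESeq2 on the same sums put TNFSF13B past the threshold (adjusted p = 0.0192), so the call depends on the test. At the mid-tail the interaction term was -1.56 ± 0.52 (unadjusted p = 0.00807, adjusted p = 0.861), and there too every A/A ram changed more upward than any D/D ram, as for 2.73% of all genes. No other of the 8 genes had an unadjusted p under 0.05 in either interaction by edgeR, where 6.09% of all genes at the tip and 5.29% at the mid-tail had one.

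**Figure D2:**
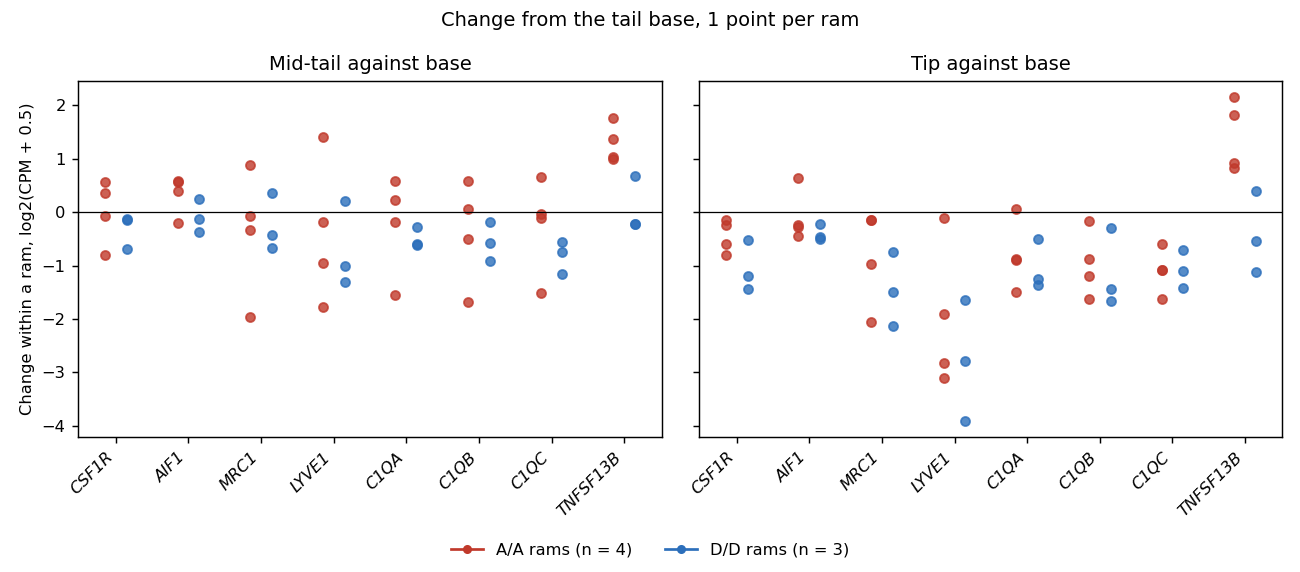
Change of each macrophage gene within a ram, on the log2(CPM + 0.5) scale, from the base to the mid-tail (left) and from the base to the tip (right), with A/A rams in red (n = 4) and D/D rams in blue (n = 3). At the tip all 7 points of LYVE1 lie below 0, from -3.9 to -0.11, and the 4 A/A points of TNFSF13B lie above the 3 D/D points.

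Within the genotypes, 3 of the 8 genes passed the test between base and tip in A/A rams, against 1.62% of all genes. C1QC (log2 fold change -1.19 ± 0.28, adjusted p = 0.0427) and LYVE1 fell, and TNFSF13B rose. No gene of the 8 was called without ram 871932 or without ram 871772, and TNFSF13B alone was called without ram 871784. In D/D rams 2 of the 8 genes passed, CSF1R and LYVE1, against 0.583% of all genes, and both calls were lost without any one of the 3 D/D rams. Over all rams, 2 of the 6 calls, C1QC and LYVE1, were left without the D/D ram 871787, and CSF1R, C1QC and LYVE1 without the D/D ram 871869. LYVE1 passed over all rams in each of the 19 other fits made.

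The mid-tail gave no call against the base or the tip. From base to mid-tail 0 of the 8 genes passed by edgeR in all rams, in A/A and in D/D, where 0.137%, 0.0263% and 0.0% of all genes did. An unadjusted p under 0.05 was given for C1QC and TNFSF13B over all rams (11.1% of all genes), for TNFSF13B in A/A (10.5%) and for C1QC in D/D (6.77%). TNFSF13B in A/A rams, with 1.61 ± 0.34 on the log2 scale, had an adjusted p of 0.138 by edgeR and of 0.00186 by DESeq2. From mid-tail to tip 0 of the 8 passed as well (0.0263%, 0.0% and 0.0% of all genes), but 7 of them, all except TNFSF13B, were lower over all rams at an unadjusted p under 0.05, against 5.33% of all genes with such a p. In A/A this held for 6 of the 8 (4.05% of all genes) and in D/D for CSF1R, MRC1 and LYVE1 (3.79%). DESeq2 on the sums called CSF1R and LYVE1 in that comparison over all rams.

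At the mid-tail, all 8 genes were highest in the same ram, the A/A ram 835507, which was the highest of the 7 for 24.6% of all genes tested. It had 55.7 CPM of CSF1R, 56.7 of MRC1, 53.7 of LYVE1 and 44 of C1QB there. The highest D/D values at the mid-tail were 32.3, 15.9, 24.6 and 24.3 CPM. Without this ram, the changes from base to tip over all rams were -2.84 for LYVE1 and -1.35 for MRC1 on the log2 scale, and the same 6 genes passed.

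For all 8 macrophage genes, paired libraries of 1 ram differed from each other at least as much as rams of a group did. For CSF1R the SD between libraries of a ram was 0.5 on the log2 scale over 20 pairs, and the SD between rams of a group was 0.37. For LYVE1 both were 0.84. The median over all genes tested was 0.31 between libraries and 0.34 between rams. All 8 macrophage genes lay above that median between libraries, and AIF1 was the lowest of them at 0.44.

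Between the genotypes, 0 of the 8 genes passed the test by edgeR at the base, the mid-tail, the tip or over the whole tail, and 0.0% of all genes passed in each. All 8 had higher fitted levels in A/A than in D/D at the tip, where their median log2 fold change was 0.55 and 51.9% of all genes were higher, and again at the mid-tail, where 53.7% were. At the base 4 were higher and 4 lower, with 50.9% of all genes higher. At the mid-tail all 8 were higher only with ram 835507 included, since without it CSF1R stood at -0.02 and LYVE1 at -0.39 on the log2 scale. MRC1, AIF1, TNFSF13B and the C1q genes stayed above 0 there with any single ram left out, the lowest being MRC1 at 0.08. Several other lists leaned the same way at the tip, with 7 of 7 genes of all leukocytes (median 0.65) and 5 of 5 of T cells (0.90) higher in A/A. So were 4 of 4 of B and plasma cells (1.19), 5 of 5 of mast cells (0.80) and 5 of 5 of fibroblasts (0.44). The same held for 3 of 3 of adipocytes (1.64) and 5 of 6 of lymphatic endothelium (0.97). Others did not lean so, with 0 of 3 granulocyte genes (-0.74) and 1 of 3 relatives and receptors of TNFSF13B (-0.16) higher in A/A. Blood vessel endothelium had 3 of 5 higher (0.05), and transcription factors of the macrophage lineage 5 of 8 (0.12). No gene of these lists passed the test by edgeR. The part of these differences in the macrophage values was not tested. An unadjusted p under 0.05 was given for 0 of the 8 at the base (3.2% of all genes), for C1QC and TNFSF13B at the mid-tail (5.63%) and over the whole tail (6.25%), and for CSF1R, MRC1 and TNFSF13B at the tip (10.2%). Limma-voom on the sums also called 0 of the 8 in each, and DESeq2 called TNFSF13B at the tip.

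Those 3 genes were also higher at the tip in every A/A ram than in every D/D ram, which held for 6.79% of all genes tested. MRC1 was lowest at 10.5 CPM in A/A and highest at 6.69 CPM in D/D, with a log2 fold change of 1.48 ± 0.41 (unadjusted p = 0.00635, adjusted p = 0.458). CSF1R was lowest at 19.1 CPM in A/A and highest at 18.3 CPM in D/D, so that the groups all but met, with 0.54 ± 0.23 (adjusted p = 0.458). For TNFSF13B the lowest A/A value was 1.92 CPM and the highest D/D value 1.77 CPM, with 1.79 ± 0.47 (unadjusted p = 0.00488, adjusted p = 0.458). Its adjusted p by DESeq2 on the sums was 0.042. Without ram 835507, MRC1 at the tip stood at 1.00 on the log2 scale. At the mid-tail TNFSF13B alone of the 8 separated the genotypes, as did 3.75% of all genes.

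**Figure D3:**
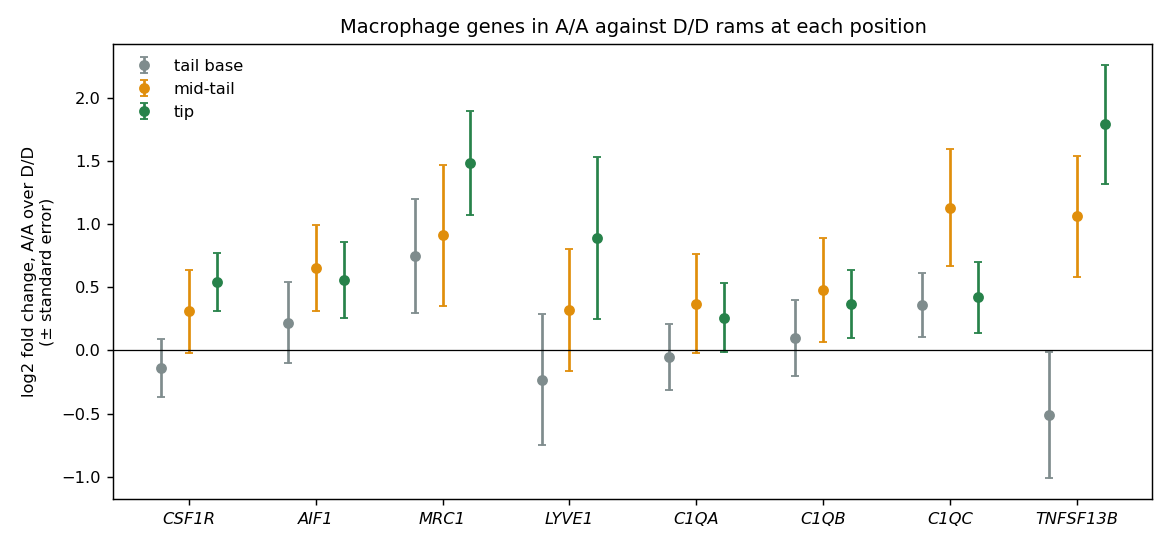
Difference between A/A and D/D rams as a log2 fold change with its standard error for each macrophage gene, positive where A/A is higher, at the base (grey), the mid-tail (orange) and the tip (green), from 4 A/A and 3 D/D rams at each. All 8 points of the mid-tail and all 8 of the tip lie above 0, up to 1.79 for TNFSF13B, and none passed the test. Without ram 835507 the mid-tail points of CSF1R and LYVE1 lie below 0, at -0.02 and -0.39.

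The ligands of CSF1R were measured in the same skin. CSF1 fell from base to tip over all rams, from 20.6 ± 2.2 to 10.7 ± 3.6 CPM (SD, n = 7), with a log2 fold change of -1.06 ± 0.20 (adjusted p = 0.00759). IL34, the ligand that keratinocytes make for Langerhans cells, went from 6.47 ± 2.14 to 5.24 ± 1.89 CPM and did not pass the test (adjusted p = 0.346). The remaining 3 tested genes of this list, receptors and ligands of related growth factors, did not pass.

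Other lists of the macrophage programme held 0 to 2 calls each by edgeR. For calls by edgeR from base to tip over all rams, in these and the other lists, the share of all genes is the 4.49% given above. DESeq2 on the sums called 659 genes higher and 844 lower of 19029 there. For the counts of list genes with an unadjusted p under 0.05 from base to tip over all rams, the share of all genes is the 18.4% given above. Of 8 transcription factors of the lineage none passed by edgeR, DESeq2 or limma-voom, none had an unadjusted p under 0.05, and their median log2 fold change was 0.01. SPI1, the factor that sets up the myeloid lineage, went from 7.02 ± 1.42 to 6.09 ± 1.43 CPM, with a log2 fold change of -0.26 ± 0.15 (adjusted p = 0.386). The sum of the 8 factors ranged from 355 to 445 CPM at the base and from 354 to 575 CPM at the tip, so SPI1 was a small part of it. The part of other skin cells in the values of these factors was not tested. Of 11 other scavenger and phagocytic receptors tested, CD14, the co-receptor for lipopolysaccharide, fell from 13.8 ± 3.21 to 6.51 ± 0.969 CPM (adjusted p = 0.00365) and FOLR2, a folate receptor of resident macrophages, from 4.59 ± 1.21 to 2.34 ± 0.327 CPM (adjusted p = 0.00249). MERTK, a receptor for dying cells, was at 9.25 ± 1.14 and 9.76 ± 1.54 CPM. Of 13 lysosome and oxidase genes, 12 had negative log2 fold changes, and the median of the 13 was -0.20. An unadjusted p under 0.05 was given for 3 that were lower and 1 that was higher at the tip. By edgeR 1 of the 13 passed, and by DESeq2 3. The gene passing both was GPNMB, a glycoprotein gene that macrophages share with melanocytes, and it rose from 111.0 ± 23.7 to 192.0 ± 53.2 CPM (adjusted p = 0.00176 by edgeR).

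Beyond C1q, 1 of 10 complement genes fell, C2, a protease component of the same pathway (log2 fold change -1.06 ± 0.25, adjusted p = 0.023). C1R and C1S, the proteases that bind C1q, were at -0.24 and -0.16 and did not pass. C3AR1, the receptor for a fragment of C3, was at -1.06 with an adjusted p of 0.0548, and DESeq2 called it together with C2, C3 and C5AR1. Among the relatives and receptors of TNFSF13B none of 3 tested genes passed by any of these tools or had an unadjusted p under 0.05. TNFRSF17, the receptor of plasma cells, was too low to be tested.

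Markers shared by all leukocytes had a median log2 fold change of -0.26. CD53 alone of 7 passed (-0.73 ± 0.20, adjusted p = 0.0469), while PTPRC, which codes for CD45, was at -0.25 ± 0.16 (adjusted p = 0.426). By all 3 tools, 0 of 7 genes of dendritic cells, 0 of 5 of T cells and 0 of 6 of B and plasma cells passed, and by edgeR 1, 2 and 0 of them had an unadjusted p under 0.05. Of 5 mast cell genes, HDC, the enzyme that makes histamine, fell (-1.49 ± 0.31, adjusted p = 0.0112).

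LYVE1 and MRC1 are also expressed by lymphatic endothelium, for which 6 other markers were measured. Over all rams 0 of the 6 passed from base to tip by all 3 tools, 0 had an unadjusted p under 0.05, their median log2 fold change was 0.01, and their summed level ranged from 67.7 to 135.0 CPM at the base and from 77.4 to 171.0 CPM at the tip. PROX1, the factor that defines these cells, was at 5.55 ± 4.42 and 5.98 ± 3.16 CPM, and FLT4 at 4.2 ± 0.744 and 4.97 ± 2.34 CPM. None of the 6 markers was at 0 counts. The pooled median joins opposite signs in the genotypes. In D/D rams, where LYVE1 and MRC1 had the larger fitted falls, 5 of the 6 markers had negative log2 fold changes with a median of -0.66, and 3 of them, CCL21 (-0.77), MMRN1 (-1.05) and RELN (-0.81), had an unadjusted p under 0.05, against 12.3% of all genes. In A/A rams the median was 0.15, with 3 of 6 negative, and CCL21 alone had such a p, at 0.84, against 14.5% of all genes. In neither genotype did a marker pass by edgeR. PROX1 was at -0.16 ± 0.51 in the D/D rams and FLT4 at -0.55 ± 0.35. For the difference between the genotypes, D/D minus A/A, the median of the 6 was -0.77 and 2 had an unadjusted p under 0.05, but none passed. The part of lymphatic endothelium in the LYVE1 and MRC1 values was not tested.

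Other parts of the skin differed along the tail as well. The summed level of 5 keratinocyte markers ranged from 14000 to 29300 CPM at the base and from 21300 to 43700 CPM at the tip, and KRT1, a keratin of the upper epidermis, rose by 1.33 ± 0.26 on the log2 scale (edgeR, adjusted p = 0.00796, not called by DESeq2). The 5 fibroblast markers ranged from 8280 to 16900 and from 2900 to 10600 CPM, and 0 passed by edgeR, but DESeq2 called 3. An unadjusted p under 0.05 by edgeR was given for 4 of them, 3 lower and 1 higher at the tip, against 18.4% of all genes. COL1A1 was at -1.25 ± 0.35 (edgeR, adjusted p = 0.0515). Of 4 adipocyte markers ADIPOQ and CIDEC fell, with log2 fold changes of -1.97 and -1.96, and the list's sum ranged from 115.0 to 525.0 CPM at the base and from 21.8 to 190.0 CPM at the tip. No marker of these lists was at 0 counts. The part of these differences in the macrophage result was not tested.

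**Figure D4:**
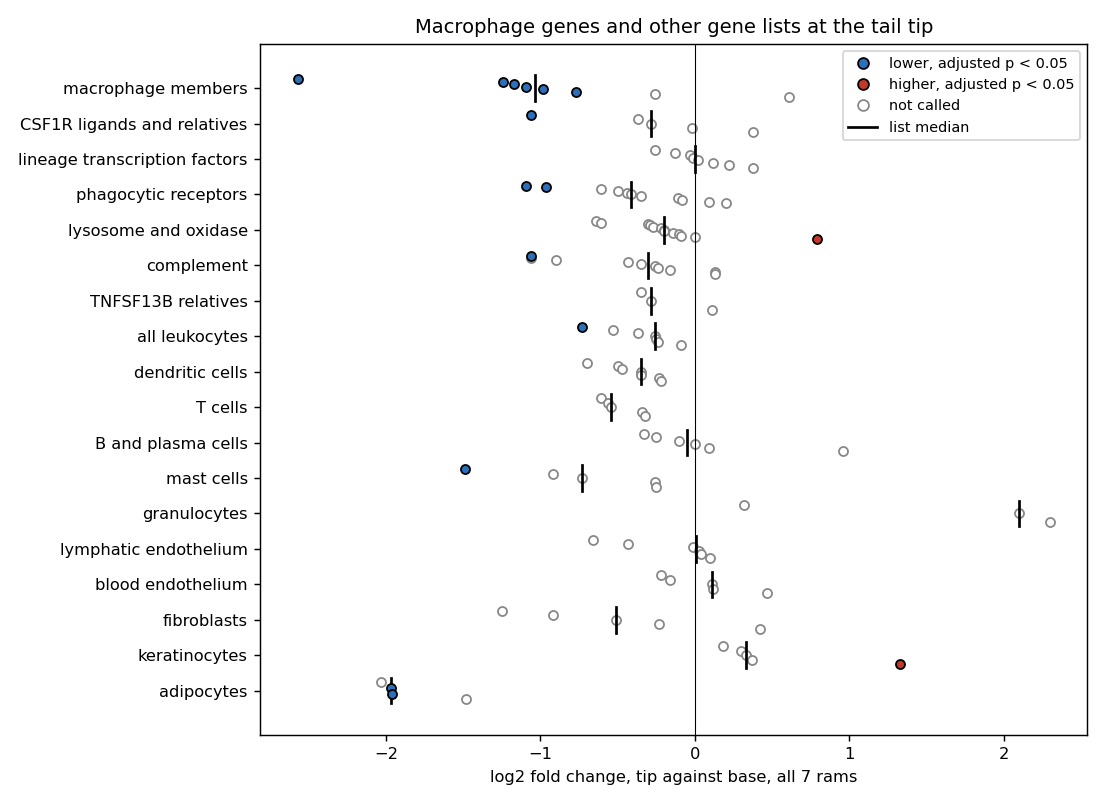
Log2 fold change from base to tip over all 7 rams for the macrophage genes and for genes of 17 other lists, with 1 point per gene and a black bar at each list's median. Filled points passed the test, blue where lower and red where higher. The macrophage genes have 6 blue points and a median of -1.04, and the lineage transcription factors have none and a median of 0.01.

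Across the 21 sums of a ram and position, the macrophage genes varied in step to different degrees. These correlations are descriptions, since the points share rams, libraries and positions. Pearson's r of log2(CPM + 0.5) was 0.92 to 0.98 among the C1q genes and 0.82 between LYVE1 and MRC1. Over the 21 pairs without TNFSF13B it ranged from 0.46 to 0.98 with a median of 0.71. TNFSF13B stood apart, with a median r of 0.13 to the other genes, and its closest was AIF1 at 0.65.

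Of 12918 genes screened, the one most like the mean of the 8 was FCER1G, the signalling chain of Fc receptors in myeloid cells, at r = 0.94. It was followed by CCBE1 (0.92), CHRDL1 (0.91), PCOLCE2 (0.91), AFF2, ANTXR2, PGFS, CD37 and F13A1 (each 0.89) and MXRA7 (0.88). CCBE1 and PCOLCE2 code for secreted matrix proteins, and F13A1, a transglutaminase subunit, is known from resident macrophages. The closest to LYVE1 were AFF2 (0.91), SCARA5 (0.91) and CCL24 (0.90), to MRC1 ALDH1L2 (0.92), IL7R (0.92) and CR2 (0.91), and to C1QC CFP (0.85), CSF1 (0.85) and BATF3 (0.85). ZFHX4 (0.88), SEZ6L (0.84) and ARSJ (0.83) were closest to TNFSF13B.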

How the data were processed

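Skin RNA of 3 tail positions of 7 rams was sequenced in 41 libraries. The authors took the skin by punch, selected RNA on oligo(dT) beads, made CorALL libraries, checked reads with FastQC 0.11.9 (submitters' processing notes), aligned them with ContextMap, which used BWA, to the sheep assembly ARS-UI_Ramb_v3.0, and counted reads per RefSeq gene and strand with featureCounts, whose version is not given in the sources used here. The deposited values are whole counts. An automatic unit check misread the column names of the tip, so those 14 deposited columns are listed as estimated counts, although they hold whole numbers like the rest and rounding changed nothing.

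Libraries were summed per ram and position. For the sums, edgeR 4.0.16 (R 4.3.3) gave the main quasi-likelihood test after TMM scaling and filterByExpr, in which positions were compared within rams (ram as block) and genotypes without a block, and p-values were adjusted after Benjamini-Hochberg. This left 19029 genes between positions, 17738, 17996 and 17842 between genotypes at base, mid-tail and tip, and 20023 over the whole tail. The pairing comes from the animals themselves, and 20 of 21 pairs of sums from the same ram had deviations correlated at over 0.1 (median 0.476). The deposited table holds no comparison columns. Levels are CPM, or log2 of CPM with a pseudocount of 0.5. Between positions and for the interactions, p-values measure how far the changes within a ram differ from ram to ram. Between genotypes they measure the spread between rams. Counting precision follows from the totals, and the counts per gene cover counting error only.

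The macrophage genes and the other lists were chosen with earlier results of these data known. Named are all 10 genes, at most 4 genes of each other list with the smallest p in all rams from base to tip or between genotypes over the whole tail, list genes quoted for their level, and the genes most like the set by Pearson's r (mean of at least 1 CPM). Alternatives were DESeq2 1.42.0, limma-voom (limma 3.58.1), single libraries, other blocks, normalizations, filters and thresholds, and each ram left out. The fits were checked on simulated data. No sequences of these genes were used here. The values of 1 list gene are not reported here.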

Additional observations from a re-analysis of the deposited data

Results flagged for a closer look

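MRC1 at the tip of the A/A rams had 1 ram far from the others. Ram 835507 stood at 27.9 CPM, and the other 3 at 10.5, 10.8 and 11.3 CPM, a gap that passes Dixon's test for an outlier. Chance gives such a gap in about 1 of 20 groups, and 24 groups of 4 A/A rams were tested, 3 positions for each of 8 genes. Groups of 3 D/D rams were too small for this test. Among A/A rams, 835507 also stood well above the others for TNFSF13B at the base, at 2.79 against 0.804 to 1.08 CPM. For LYVE1 at the mid-tail, ram 835507 stood at 53.7 against 11.2 to 18.2 CPM. Neither gap was flagged, and the outcome of the outlier test depends on the scale of the values. On the CPM printed here both gaps pass Dixon's critical value of 0.829, and on log2(CPM + 0.5) neither does. The gap of MRC1 passes on both scales. Without this ram the log2 fold change of MRC1 from base to tip over all rams was -1.35 (edgeR, adjusted p = 0.00813), and that of A/A over D/D at the tip was 1.00 (adjusted p = 0.516).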

How the results depend on the processing

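Of 2320 alternative fold changes of the 8 genes, 2217 kept their direction and their side of the threshold, 53 lost the call, 50 gained one, and no called value reversed. A further count of 72 changed sign without being called in either fit. The counts of genes called moved more. From base to tip over all rams (6 called), 2 were called without the ram as a block, 3 with library 1 alone, 2 with library 2 alone and 2 at an adjusted p of 0.01 with an absolute log2 fold change over 1, and leaving out single rams gave 2 to 6. In A/A rams (3 called), DESeq2 called 5 on the sums and 5 on single libraries with the design of the study, 1 was called when each genotype was fitted on its own, 0 without the block, with either library alone or at the stricter threshold, and 0 to 3 with single rams left out. In D/D rams (2 called), DESeq2 called 6 on the sums and 6 on single libraries, edgeR on single libraries 5, also 5 with the library number as a block, 6 when the genotype was fitted on its own, 0 without the block, with either library alone or at the stricter threshold, and 0 to 3 with single rams left out. Of the 12 comparisons in which edgeR called 0, 6 had no call under any setting, namely base to mid-tail in all rams and in D/D, mid-tail to tip in D/D, the mid-tail interaction, and the genotypes at the base and at the mid-tail. In the other 6, some settings gave calls. From base to mid-tail in A/A, 1 (TNFSF13B) was called by DESeq2 on sums and on single libraries and by edgeR on single libraries with or without the library block. From mid-tail to tip over all rams, DESeq2 called 2 on the sums and 1 on single libraries, and 1 was called by edgeR on single libraries with or without that block and without a filter on low counts, with 0 to 1 when single rams were left out. From mid-tail to tip in A/A, 1 (LYVE1) was called by DESeq2 on single libraries. The interaction at the tip had 1 (TNFSF13B) by DESeq2 on sums and on single libraries. Between genotypes at the tip DESeq2 called 1 on the sums and 2 on single libraries, and over the whole tail edgeR on single libraries called 4 with or without the library block, where the libraries of a ram count as if independent. Over all genes, that whole-tail fit without the block called 1769 higher and 1036 lower of 16539. At the tip DESeq2 called 53 higher and 12 lower of 17842 on the sums, and 1821 and 1597 of 17785 on single libraries. The counts over all genes moved as well. From base to tip in D/D rams, 23 genes rose and 88 fell of 19029 in the main fit. DESeq2 gave 131 and 397 of 19029 on the sums, and 475 and 815 of 17785 on single libraries. The fit of D/D on its own gave 337 and 508 of 18057, and the fit without the block 0 and 2 of 19029. In A/A rams, 158 rose and 150 fell in the main fit, and 409 and 432 by DESeq2 on the sums. The cause of these moves was not tested. Depth limits TNFSF13B most, with 20 to 235 counts per ram and position.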

Other observations

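The C1q chains are joined in fixed proportion in the finished protein, but the ratio of their counts varied between samples. The ratio of C1QA to C1QC counts was 1.13 to 1.44 at the base of the A/A rams and 1.67 to 1.81 at the base of the D/D rams. At the mid-tail it was 1.22 to 1.44 and 1.73 to 2.56. The groups did not overlap at either position, while at the tip they did, with 1.47 to 1.8 and 1.53 to 1.95. This ratio was chosen after its values were seen, and the difference was not tested. The share of other gene pairs with such a separation was not counted. The ratio of C1QB to C1QC, which shares the denominator, overlapped at the base, at 2.2 to 2.69 in A/A and 2.42 to 3.23 in D/D, and at the tip, at 2.53 to 3.01 and 2.46 to 3.32, but not at the mid-tail, at 2.06 to 2.36 and 3.01 to 3.97. The ratio of C1QB to C1QA overlapped between the genotypes over all positions, at 1.57 to 2.09 in A/A and 1.45 to 1.92 in D/D.

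S100A8 and S100A9, which granulocytes and stressed keratinocytes both express, had higher mean levels at the tip than at the base, going from 13.8 ± 22.6 to 102.0 ± 135.0 CPM and from 13.2 ± 20.1 to 86.0 ± 122.0 CPM (SD, n = 7). Neither passed the test (edgeR, adjusted p = 0.151 and 0.155), limma-voom called S100A8, and the SD exceeded the mean at both positions.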
